A study of Mus musculus with 42 samples.

Results

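The genes described here are those by which a cell makes sterols and long fatty acids and senses, moves and stores cholesterol. They were chosen by name from a raw count table of bone marrow-derived macrophages, as 32 symbols from 5 groups: the mevalonate steps, the squalene and sterol steps, the control of the SREBP transcription factors, sterol transport and storage, and fatty acid synthesis. Of the 32, 31 had a row among the 37310 identifiers of the table and passed the filter on low counts, so that the 6, 11, 4, 4 and 6 members of the 5 groups were all among the 11624 genes tested. Hmgcs1, the HMG-CoA synthase, was not analysed here. The rule for the members uses gene names and no measured value, but the members were chosen with earlier results of these data known.

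Macrophages were grown from the marrow of adult male C57BL/6 mice in medium conditioned by L929 cells. The mice carried loxP-flanked alleles of Irf5, a transcription factor of the interferon regulatory family, together with a Cre recombinase driven by the myeloid gene Lyz2 (labelled KO), or were wild-type littermates (labelled WT). For each label there were 7 conditions with 3 libraries each: Control at 0, 2 and 24 hours, palmitate (a saturated fatty acid) at 2 and 24 hours, and LPS (bacterial lipopolysaccharide, a ligand of Toll-like receptor 4) at 2 and 24 hours. The 42 libraries were made from ribodepleted total RNA and held 2848793 to 7743442 counts (median 5625399), and no pair of libraries of a group agreed within sampling noise. Whether the 3 libraries of a group came from separate mice was not stated, so the p-values measure the spread between these libraries, which may be technical.

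The labels could not be checked from the targeted gene. Irf5 counts were not lower in any KO-labelled group: the log2 fold change against the WT-labelled group of the same condition ran from 0.043 to 0.471, and Irf5 was called higher in 4 of 7 conditions. The counts cover the whole gene and the deleted exons were not given in the sources used here, so they do not test the deletion, and the libraries are named by their labels throughout. Lyz2, the locus that holds the Cre insert, was called lower in the KO-labelled groups in 7 of 7 conditions. All 6 macrophage markers (Adgre1, Csf1r, Cd68, Itgam, Mertk and Fcgr1) were tested, and their summed level ran from 4710 to 8747 CPM, the count per 1000000 of the scaled library total. The summed level of 8 granulocyte markers was 50.9 to 61.3 CPM at Control 0h in the WT-labelled and 81.5 to 87.7 CPM in the KO-labelled libraries. Of these 6 were tested, as were 3 of 5 fibroblast markers, whose sum reached at most 0.905 CPM in the former and 42.1 to 69.3 CPM in the latter, and 4 adipocyte and hepatocyte markers stayed at 3 counts or fewer. Bulk counts cannot tell fewer cells of a type from less RNA per cell.

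Cholesterol is built from acetyl-CoA through mevalonate to farnesyl diphosphate, then through squalene and lanosterol to the finished sterol. The genes of this pathway are switched on by SREBP-2, the product of Srebf2, which leaves the endoplasmic reticulum with the escort protein Scap when sterols are scarce and is held there by the Insig proteins when they are plentiful. Insig1 is itself a SREBP target, so its transcript is commonly read as a gauge of SREBP activity. SREBP factors act at sterol regulatory elements (SRE), usually next to sites for the CCAAT-binding factor NF-Y and for Sp1. Fatty acid synthesis (Acaca, Fasn, Elovl6 and the desaturases Fads1 and Fads2) shares part of this control through SREBP-1. In macrophages, Toll-like receptor signalling is known to reset both pathways, and the sterol enzymes also supply intermediates with immune functions.

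RefSeq promoters (GRCm38.p6, 250 bases before and 50 bases after the gene start) were at hand for 25 of the 31 members and for 8900 tested genes. Both strands were searched. The exact SRE letters TCACNCCAC were found in 0 members, against 1.4% of all tested promoters. With 1 mismatch allowed, a choice made after the data were seen, they were found in 10 of 25 (40%) against 29.1%. The CCAAT box was found in 20 members (80%) against 42.8%, the GC box GGGCGG in 20 (80%) against 69.3%, and the E-box CACGTG in 6 (24%) against 12.2%. A match is only a run of letters, and 0 matches says only that the letters are not in these windows.

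The bases before the annotated start are given here for 5 members whose transcripts moved with LPS as examples of these windows. Insig1 (chr5:28071162-28071362, plus strand) and Srebf2 (chr15:82147019-82147180, plus strand) control the pathway, Cyp51 (chr5:4104747-4104947, minus strand) and Hsd17b7 (chr1:169969242-169969455, minus strand) are sterol enzymes, and Npc2 (chr12:84773153-84773362, minus strand) moved the other way from them at 24 hours. Each is given 5′ to 3′ on the strand of its gene, and bases inside annotated exons were left out. Capitals mark the CCAAT box on either strand, the SRE with at most 1 mismatch, and the E-box.
Insig1: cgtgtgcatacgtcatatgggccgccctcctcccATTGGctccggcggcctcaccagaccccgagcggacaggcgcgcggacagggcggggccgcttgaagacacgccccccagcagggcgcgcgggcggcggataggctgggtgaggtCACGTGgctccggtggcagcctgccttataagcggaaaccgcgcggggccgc
Srebf2: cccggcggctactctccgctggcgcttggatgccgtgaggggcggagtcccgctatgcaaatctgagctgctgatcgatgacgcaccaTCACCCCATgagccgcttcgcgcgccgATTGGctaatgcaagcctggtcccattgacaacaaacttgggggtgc
Cyp51: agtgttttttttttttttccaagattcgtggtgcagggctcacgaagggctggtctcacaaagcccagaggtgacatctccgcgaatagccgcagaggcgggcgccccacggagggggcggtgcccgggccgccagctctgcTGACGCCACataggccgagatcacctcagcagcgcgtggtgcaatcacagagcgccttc
Hsd17b7: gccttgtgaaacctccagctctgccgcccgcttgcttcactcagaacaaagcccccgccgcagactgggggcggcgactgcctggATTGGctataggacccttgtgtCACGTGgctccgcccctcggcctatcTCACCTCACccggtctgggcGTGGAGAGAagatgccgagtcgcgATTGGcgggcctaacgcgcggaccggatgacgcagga
Npc2: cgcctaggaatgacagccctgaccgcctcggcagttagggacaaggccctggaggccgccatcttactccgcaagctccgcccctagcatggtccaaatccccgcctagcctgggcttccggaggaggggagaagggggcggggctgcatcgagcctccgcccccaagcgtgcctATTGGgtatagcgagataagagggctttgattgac

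All of these stretches except that of Cyp51 hold a CCAAT box, read on the opposite strand, with 2 in Hsd17b7. The Srebf2 stretch holds 1 near-SRE before its CCAAT box, with its first base 162 bases before the RefSeq start. In Cyp51 the near-SRE lies from 108 to 100 bases before the start. Hsd17b7 carries 2 near-SREs, 1 on each strand, and an E-box. Insig1 has an E-box, and neither Insig1 nor Npc2 has a near-SRE in the bases shown. The near-SRE of Insig1 and the CCAAT box of Cyp51 that were counted above lie in the bases left out.

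Levels differed widely between the members. Per kilobase of exon, Npc2, which hands cholesterol out of the lysosome, stood highest with a median of 75.8 CPM per kb over the 42 libraries, followed by Soat1, which esterifies cholesterol for storage, at 60.9, and Npc1, the lysosomal membrane partner of Npc2, at 29.9. Srebf2 (15.3), Fads1 (13.8) and Insig1 (12.9) came next. Among the enzymes, Msmo1 (7.34), Cyp51 (6.95) and Ebp (6.74) led the sterol steps and Pmvk (5.91) and Fdps (5.67) the mevalonate steps, each on the same per-kb scale. At the bottom were Elovl6 (0.448) and Fads2 (0.354), whose counts per library ran from 1 to 28 and from 0 to 22, so that single values of both rest on few reads. Comparisons of a gene across groups below are in CPM without the division by length.

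The lowest group mean was an LPS 24h group for 20 members, and the highest was the KO-labelled LPS 2h group for 11. Cyp51 had the widest span of group means among well-counted members, from 11.3 CPM in the KO-labelled LPS 24h group to 61.7 CPM in the KO-labelled LPS 2h group, a ratio of 5.46, and Insig1 followed with 5.25. The KO-labelled LPS 2h library 1, with the fewest counts of all libraries (2848793), read highest in its group for both. For Insig1 the remaining libraries of that group lay below every WT-labelled LPS 2h library. Pmvk, Nsdhl, Ebp, Insig2, Elovl5 and Fads1 kept their highest and lowest group means within a ratio of 1.39. Acat2, Pmvk, Tm7sf2, Nsdhl, Ebp and Insig2 were called in none of the comparisons made. Exons of Fdft1, Lss, Cyp51, Scap and Npc1 overlap those of a gene on the other strand, and exons of Tm7sf2 overlap Vps51 on the same strand, so their counts are less certain than those of the other members.

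**Figure D1:**
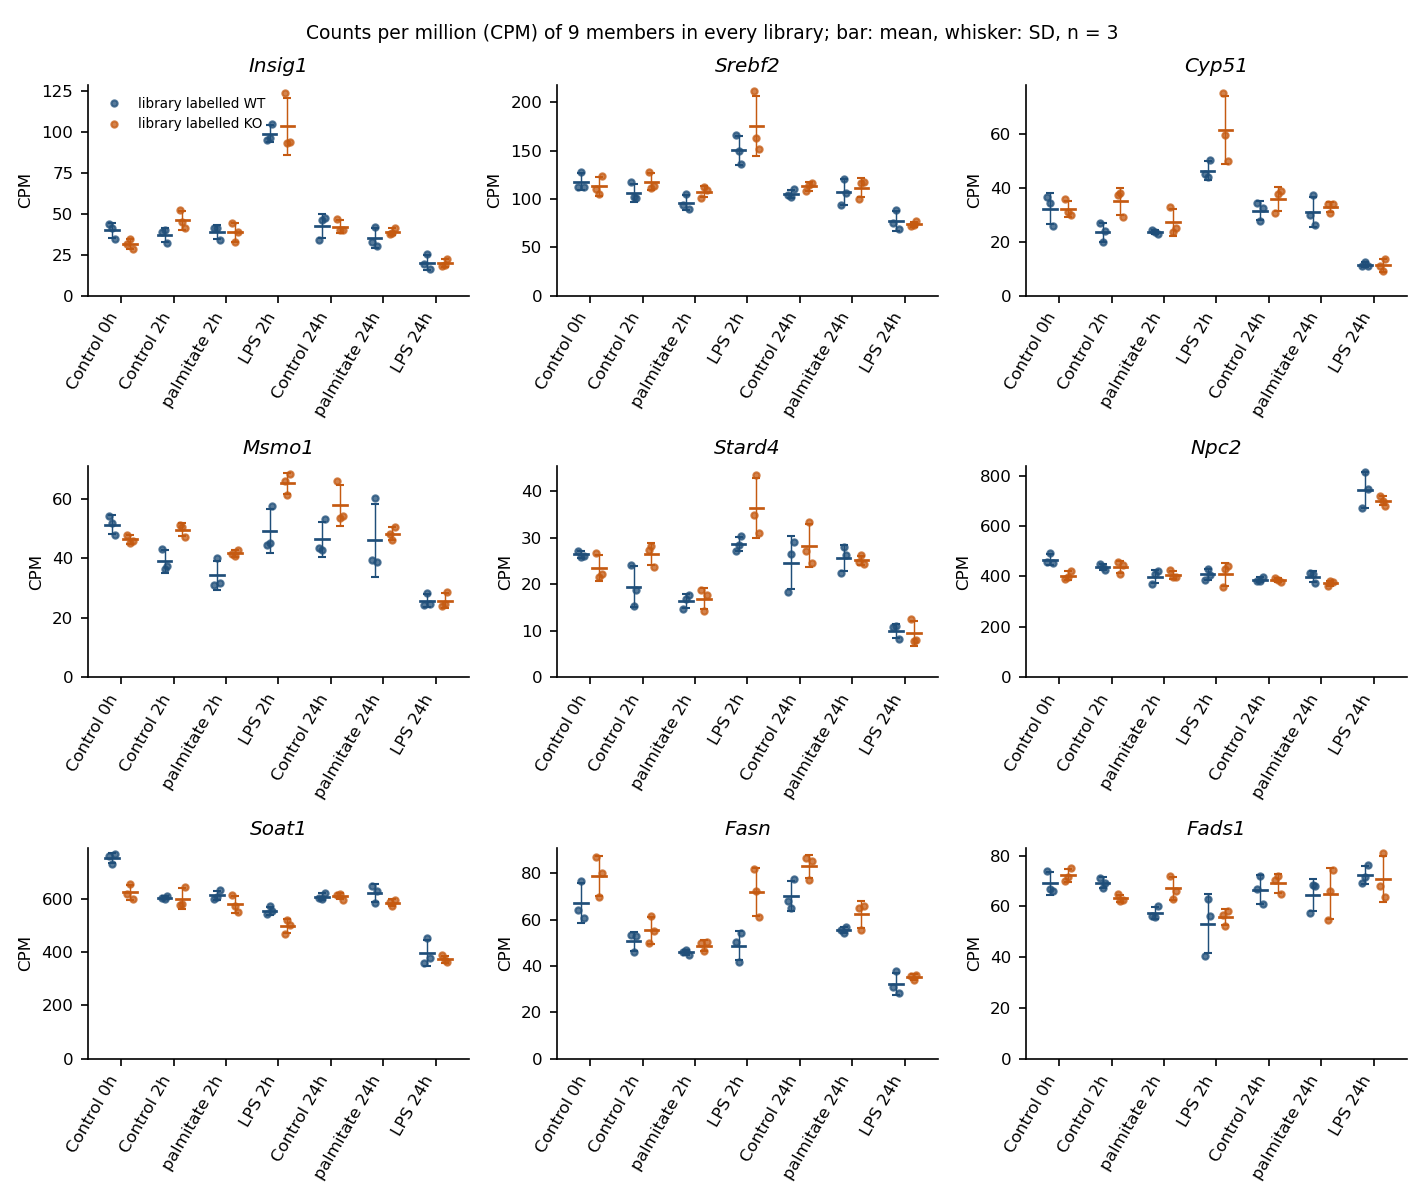
CPM (y axis, from 0) of 9 members in each library, by condition (x axis). Points are libraries, bars means and whiskers SD (n = 3), with WT-labelled libraries in blue and KO-labelled ones in orange. Insig1, Srebf2, Cyp51 and Stard4 stand highest at LPS 2h and lowest at LPS 24h under both labels, Soat1 and Fasn are lowest at LPS 24h, and Npc2 is highest there.

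The first question was how LPS changed these genes within 2 hours. In the WT-labelled macrophages 8 of 31 members rose and 1 fell (edgeR quasi-likelihood test, adjusted p under 0.05), where 14% of all tested genes were called higher and 9.1% lower. The median log2 fold change of the members was 0.16, against -0.0094 over all genes. Insig1 had the largest rise among those called, with Cyp51, Fdft1, Idi1, Msmo1, Sc5d, Srebf2 and Stard4 beside it. The KO-labelled macrophages had 7 members higher and 1 lower, with 14.7% and 9.16% of all genes called, and a member median of 0.18 against -0.0114. Cyp51, Insig1, Msmo1, Srebf2 and Stard4 rose under both labels, which is 62.5% of the first list and 71.4% of the second (80.2% and 76.3% over all genes).

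Of the SREBP control genes, Insig1 (ENSMUSG00000045294, a protein-coding gene at chr5:28071363-28078662 of mm10, the build of all positions given here) read 38.9, 40.4 and 32.01 CPM in the 3 WT-labelled Control 2h libraries and 95.5, 96.4 and 105 CPM in the 3 LPS 2h libraries. Every LPS library was above every Control library. That is 2.68-fold higher, or 1.42 ± 0.13 (SE) on the log2 scale, with an adjusted p of 8.23e-13 by edgeR. In the KO-labelled libraries Insig1 read 52.3, 44.8 and 41.2 CPM in Control and 124, 93.2 and 93.8 CPM with LPS, again without overlap (log2 fold change 1.15, SE 0.13, adjusted p = 3.08e-10 by edgeR). Srebf2 (ENSMUSG00000022463, chr15:82147181-82205379) read 117, 102 and 101 CPM in WT-labelled Control and 166, 149 and 136 CPM with LPS. It rose by less than Insig1 but also without overlap, with log2 fold changes of 0.49 (SE 0.10, adjusted p = 9.58e-05 by edgeR) and, under the KO label, 0.56 (SE 0.10, adjusted p = 8.72e-06). Scap rose by 0.36 in the KO-labelled libraries and had 0.16, not called, in the WT-labelled ones, and its call was lost without the Control 2h library 1 or 2 or the LPS 2h library 1. Insig2, the paralogue of Insig1, had log2 fold changes of -0.22 and -0.08, neither called.

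Among the sterol enzymes Cyp51 (ENSMUSG00000001467, chr5:4081145-4104746), the lanosterol demethylase, moved most at 2 hours. It read 26.9, 19.9 and 24.0 CPM in WT-labelled Control and 45.1, 44.0 and 50.3 CPM with LPS (log2 fold change 0.99, SE 0.15, adjusted p = 7.70e-07 by edgeR). The KO-labelled libraries read 37.5, 38.1 and 29.4 CPM and 75.2, 59.8 and 50.2 CPM, so that under both labels the LPS and Control libraries did not overlap (log2 fold change 0.80, adjusted p = 1.60e-05). Exons of Cyp51 overlap those of Akap9 on the other strand, whose own log2 fold changes were 0.12 and 0.19, not called. Msmo1, the methylsterol monooxygenase, rose by 0.36 and 0.39. Its WT-labelled call was lost without the Control 2h library 2 or 3 or the LPS 2h library 3. The KO-labelled call was lost without the Control 2h or LPS 2h library 3. Fdft1, the squalene synthase that commits the pathway to sterols, rose 1.72-fold in the WT-labelled libraries (adjusted p = 3.73e-03 by edgeR), and Sc5d, which introduces a late double bond, rose 1.64-fold, a call lost without the Control 2h library 2 or the LPS 2h library 3. Fdft1 shares exons with Ctsb, an abundant protease gene on the other strand with a log2 fold change of 0.04 here, and without a stated strand setting their reads cannot be told apart. Sqle, the rate-limiting monooxygenase, was not called (0.25 and 0.01), nor were Lss, Nsdhl, Ebp, Dhcr7, Hsd17b7 and Tm7sf2.

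In the mevalonate group, Idi1, which isomerises isopentenyl diphosphate, was the one call: 4.84, 4.14 and 6.22 CPM in WT-labelled Control against 7.51, 11.1 and 7.62 CPM with LPS (log2 fold change 0.79, adjusted p = 0.0227 by edgeR). The Idi1 call was lost without the Control 2h library 1 or 2 or the LPS 2h library 2. Mvd, Fdps, Mvk, Pmvk and Acat2 were not called under either label. Stard4, a carrier of sterol through the cytosol, rose from 24.2, 15.4 and 18.8 CPM to 27.2, 28.4 and 30.3 CPM in the WT-labelled libraries and from 27.3, 28.3 and 23.8 CPM to 34.9, 43.6 and 30.9 CPM in the KO-labelled ones (log2 fold changes 0.57 and 0.47, adjusted p = 8.25e-03 and 0.0240 by edgeR). The WT-labelled call needed the Control 2h library 2, and the KO-labelled one the Control 2h library 3 and the LPS 2h library 2. Soat1 fell in the KO-labelled libraries by 0.27 on the log2 scale (adjusted p = 5.46e-04) and had -0.12, not called, in the WT-labelled ones. Npc1 and Npc2 were called under neither label.

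The fatty acid group did not share a direction at 2 hours. Fads1, the delta-5 desaturase, fell in the WT-labelled libraries from 71.4, 67.2 and 69.3 CPM to 40.4, 62.9 and 56.3 CPM, and without the lowest of these LPS libraries its log2 fold change of -0.35 became -0.23, with an adjusted p of 0.147 by edgeR. Fasn, the fatty acid synthase, rose under the KO label from 49.9, 61.6 and 54.97 CPM to 82.0, 72.3 and 61.2 CPM, a step in which the highest Control library stood just above the lowest LPS library. That call was lost without the Control 2h or LPS 2h library 1 and in a fit of the 6 libraries alone. Fasn in these Control 2h libraries had fallen from 0 hours, as given below. In the WT-labelled libraries its log2 fold change was -0.05, not called. Acaca, Elovl5, Elovl6 and Fads2 were not called. Without the WT-labelled Control 2h library 2, the number of called members under that label went from 9 to 5. The summed level of 8 cell cycle genes was 935 to 1158 CPM with LPS against 506 to 722 CPM in WT-labelled Control 2h, and 1140 to 1250 CPM against 642 to 712 CPM under the KO label. Of these genes Mki67 alone was called under the WT label (log2 fold change 1.68), and Mki67 (1.59) and Top2a (0.34) under the KO label. Their part in these results was not tested.

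**Figure D2:**
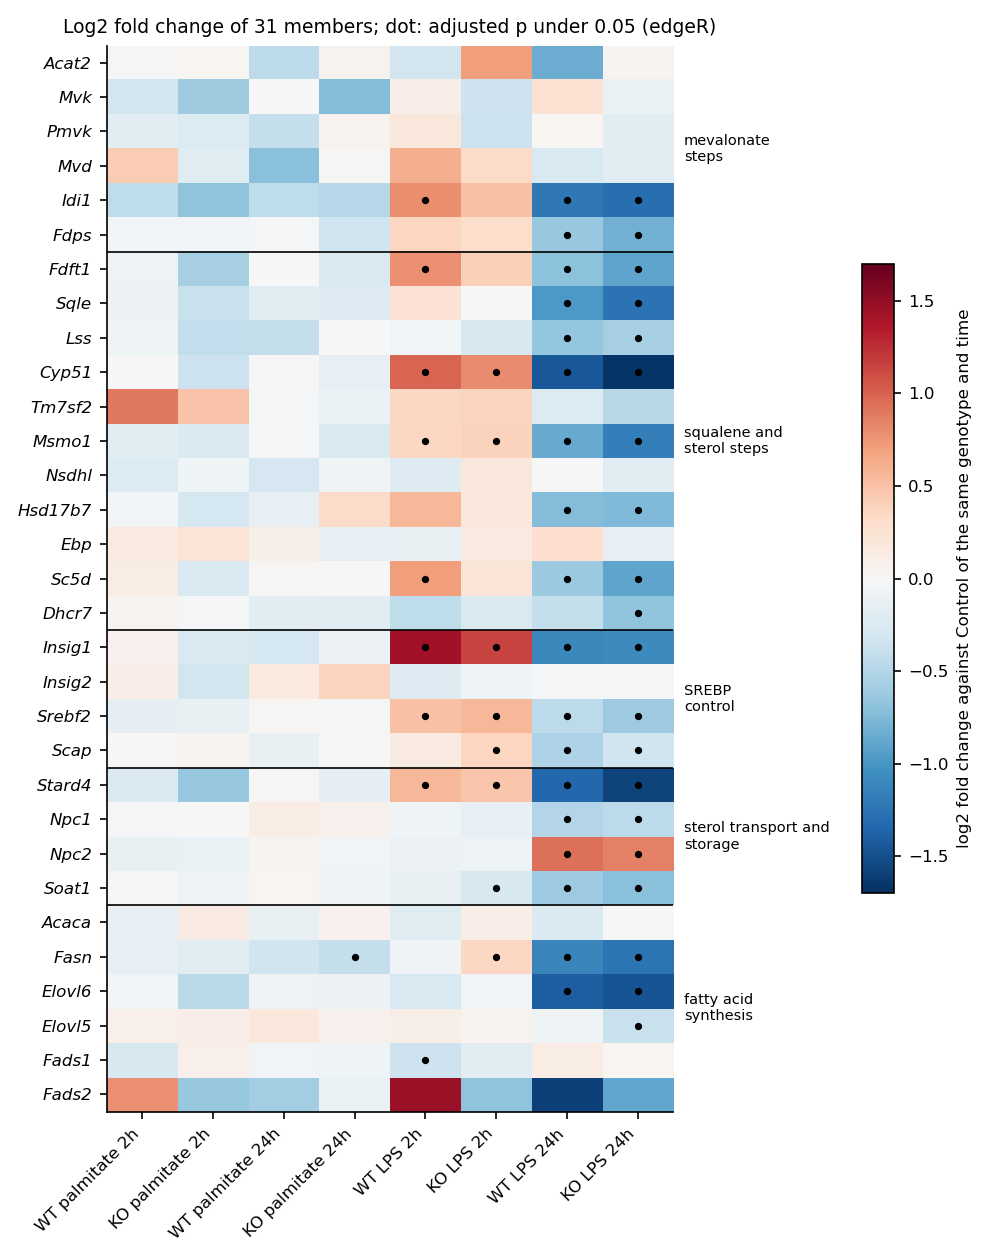
Log2 fold change of 31 members (rows, grouped by role) in the 8 comparisons of a treatment with Control of the same label and time (columns), from blue (lower) to red (higher). A dot marks an adjusted p under 0.05, and dots gather in the LPS columns, mostly upward at 2 hours and mostly downward at 24 hours, with 1 dot in the 4 palmitate columns.

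The same genes were then compared after 24 hours of LPS. Here 17 of 31 members fell and 1 rose in the WT-labelled macrophages, against 19.9% of all genes called lower and 19.6% called higher, and 19 fell and 1 rose in the KO-labelled ones, against 21% and 19.9%. The median log2 fold change of the members was -0.62 under both labels, against -0.0113 and -0.0095 over all genes. All 17 members that fell under the WT label also fell under the KO label (100% of the first list and 89.5% of the second, against 80.5% and 76.4% over all genes), where Dhcr7 and Elovl5 were called as well. The one gene that rose was Npc2 in both. By role, 2 of 6 mevalonate genes, 7 of 11 sterol genes, 3 of 4 SREBP control genes, 3 of 4 transport and storage genes and 2 of 6 fatty acid genes fell in the WT-labelled libraries.

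Cyp51 fell from 34.5, 27.8 and 32.5 CPM in WT-labelled Control 24h to 11.1, 12.6 and 10.9 CPM with LPS (log2 fold change -1.45, SE 0.17, adjusted p = 4.94e-10 by edgeR). In the KO-labelled libraries it fell from 30.8, 37.9 and 38.9 CPM to 11.2, 8.96 and 13.8 CPM, 3.16-fold lower (log2 fold change -1.66, SE 0.17, adjusted p = 4.42e-12). Every LPS library was far below every Control library. Msmo1 read 43.2, 42.7 and 53.2 CPM in WT-labelled Control and 24.1, 28.3 and 24.6 CPM with LPS (-0.86, adjusted p = 2.37e-07 by edgeR), and its KO-labelled value was -1.16. Sqle fell by 0.97 and 1.26 on the log2 scale. For these 3 enzymes the libraries of the groups did not overlap. Fdft1, Sc5d, Lss and Hsd17b7 fell by 0.57 to 0.89 on the log2 scale over both labels, and Ctsb, which overlaps Fdft1, fell too, by 0.29 and 0.28. Under the WT label the Fdft1 call was lost without the LPS 24h library 1 or 3, that of Lss without the Control 24h library 3 or the LPS 24h library 2, and that of Hsd17b7 without library 1 or 3 of either group. Under the KO label the Lss call was lost without the Control 24h library 1 or 3 or the LPS 24h library 1 or 2, and the Hsd17b7 call without the Control 24h library 3 or the LPS 24h library 1 or 2.

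In the mevalonate group Idi1 fell by 1.21 on the log2 scale in the WT-labelled libraries (adjusted p = 5.80e-04 by edgeR) and by 1.29 in the KO-labelled ones. Fdps, the farnesyl diphosphate synthase, fell by 0.64 (adjusted p = 1.50e-03 by edgeR) and 0.82. Mvk, Pmvk and Mvd, the kinases and the decarboxylase that turn mevalonate into isopentenyl diphosphate, were not called under either label, with log2 fold changes from -0.26 to 0.27. Acat2, with 3 to 43 counts in a library, had -0.84 and 0.05, neither called.

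Of the control genes, all but Insig2 fell. Insig1 read 34.2, 46.3 and 47.4 CPM in WT-labelled Control 24h and 19.2, 25.3 and 16.2 CPM with LPS, 2.15-fold lower (log2 fold change -1.10, SE 0.15, adjusted p = 2.06e-08 by edgeR). The KO-labelled values were 46.7, 39.9 and 39.9 CPM and 17.9, 18.9 and 22.4 CPM (-1.08, adjusted p = 3.14e-08), and no LPS library reached a Control library under either label. Srebf2 fell by 0.45 and 0.62 and Scap by 0.52 and 0.34 on the log2 scale, all called. Insig2 had -0.02 and -0.03, with 95% intervals from -0.34 to 0.31 and from -0.36 to 0.31.

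Transport and storage split at 24 hours. Stard4 fell from 18.2, 26.4 and 29.1 CPM to 10.8, 10.9 and 8.27 CPM (WT label, log2 fold change -1.33, SE 0.18, adjusted p = 1.62e-08 by edgeR) and from 27.1, 33.4 and 24.5 CPM to 12.5, 7.66 and 8.05 CPM (KO label, -1.57). Soat1 fell from 602, 597 and 621 CPM to 358, 452 and 379 CPM and Npc1 from 344, 310 and 307 CPM to 226, 237 and 216 CPM in the WT-labelled libraries, with KO-labelled log2 fold changes of -0.71 and -0.44. Npc2 (ENSMUSG00000021242, chr12:84754562-84773152) rose instead, from 381, 381 and 398 CPM to 670, 813 and 748 CPM (log2 fold change 0.94, SE 0.07, adjusted p = 2.49e-17 by edgeR). Its KO-labelled libraries went from 392, 387 and 376 CPM to 718, 701 and 681 CPM (0.86, adjusted p = 5.35e-16). The lysosomal pair, Npc1 and Npc2, moved in opposite directions, each without overlap between LPS and Control libraries. Exons of Npc1 overlap those of Rmc1 on the other strand. Rmc1 fell by 0.24 under the WT label and had -0.18, not called, under the KO label. The part of that overlap was not tested.

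Of the fatty acid genes Fasn and Elovl6 fell under both labels. Fasn (ENSMUSG00000025153, chr11:120805846-120824547) read 67.9, 65.0 and 77.5 CPM in WT-labelled Control and 30.98, 37.7 and 28.2 CPM with LPS (log2 fold change -1.13, SE 0.11, adjusted p = 4.60e-12 by edgeR), and 86.7, 77.3 and 85.4 CPM and 35.5, 33.8 and 36.2 CPM under the KO label (-1.24, adjusted p = 8.75e-14). Elovl6, an elongase of saturated chains, fell by 1.40 and 1.47 from Control means of 2.96 and 3.51 CPM, and the call was lost without the Control 24h library 3 or the LPS 24h library 2 or 3 under the WT label and without the LPS 24h library 2 under the KO label. Elovl5 fell by 0.37 in the KO-labelled libraries and had -0.07, not called, in the WT-labelled ones. Acaca, Fads1 and Fads2 were not called, Fads2 with wide errors (-1.59, SE 0.76, and -0.89, SE 0.65). All 8 cell cycle genes fell under both labels, their summed level from 637 to 666 CPM in WT-labelled Control 24h to 257 to 300.5 CPM with LPS, and from 663 to 724 CPM to 286 to 327 CPM under the KO label. The marker lists did not move as one. Of 6 macrophage markers 4 rose and 2 fell under each label, with Fcgr1 (log2 fold change 3.46) and Adgre1 (1.44) carrying the WT-labelled sum from 5032 to 5078 CPM up to 7691 to 8747 CPM, and Cd68 (-0.29) and Mertk (-0.45) lower. Of the 6 granulocyte markers tested, Lcn2 alone rose under the WT label (5.88) and took the sum from 58.7 to 65.5 CPM up to 339 to 451 CPM, while S100a9 (-1.35), Ngp (-1.18) and Ltf (-2.16) fell. The part of these genes in the result was not tested.

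Every member that rose at 2 hours fell at 24 hours: 8 of 8 under the WT label and 7 of 7 under the KO label. Over all genes, 17.1% and 17.6% of those called higher at 2 hours were called lower at 24 hours. Of all 31 members, 17 under the WT label and 19 under the KO label were called lower at 24 hours. Several of the 2-hour calls were lost on leaving out 1 library, as given above. In Control 2h, Cyp51, Fdft1, Msmo1 and Sc5d (WT label) and Fasn (KO label) were themselves lower than at 0 hours, as given below. The 2 times have separate Control libraries. The change of the LPS effect itself, from 2 to 24 hours, was tested as a contrast added after the data were seen. It was negative and called for 16 members and positive for 2 in the WT-labelled macrophages, where 32.6% of all genes were called in either direction, and negative for 15 and positive for 1 in the KO-labelled ones, where 33.4% were called. Among members called under both labels the largest drops were those of Insig1 (-2.52, SE 0.20, adjusted p = 4.58e-15 by edgeR, and -2.23 under the KO label) and Cyp51 (-2.43 and -2.46), followed by Stard4 (-1.91 and -2.04) and Idi1 (-2.00 and -1.79). Npc2 had the opposite sign (1.04 and 0.95), as had Fads1 in the WT-labelled libraries (0.47, lost without the LPS 2h library 1). Fads2, with its few counts, had -3.06 (SE 1.10) under the WT label, a call lost without any one of 4 libraries (Control 2h library 2, LPS 2h library 2, LPS 24h library 2 or 3). Fasn had -1.07 under the WT and -1.59 under the KO label.

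**Figure D3:**
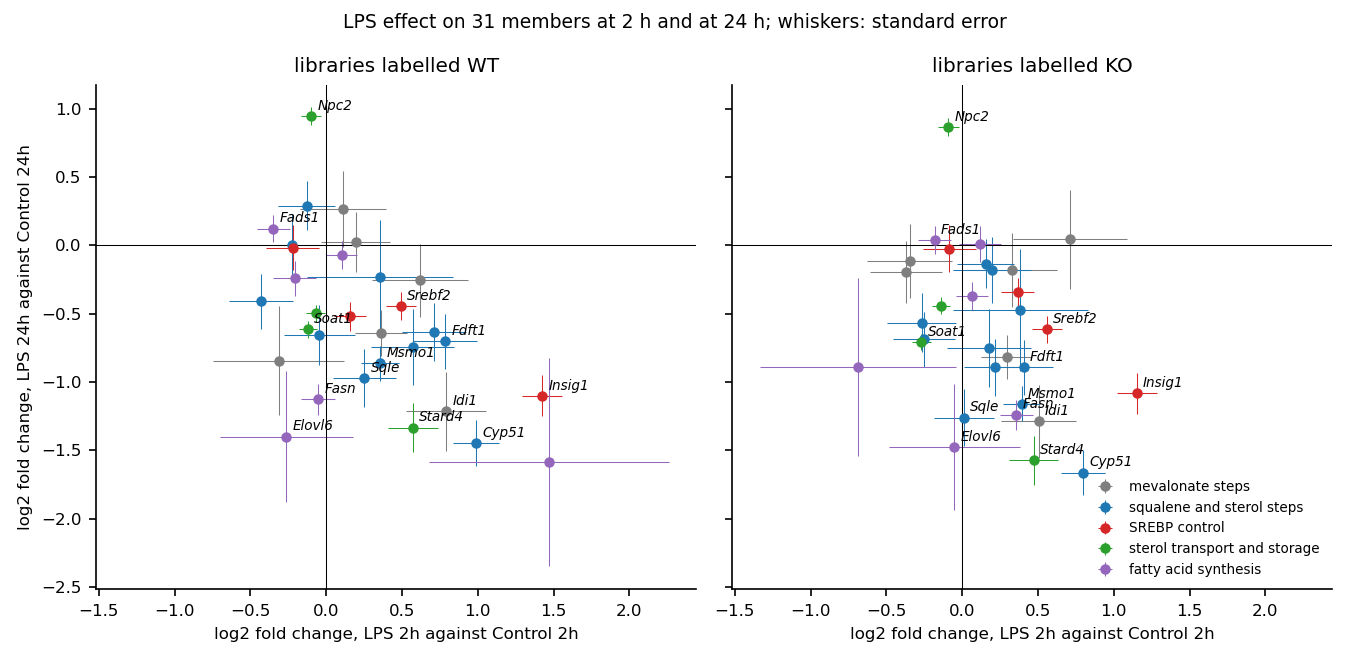
Log2 fold change of 31 members with LPS at 2 hours (x axis) and at 24 hours (y axis), for WT-labelled (left) and KO-labelled (right) libraries, coloured by role, with standard errors as whiskers. Insig1, Cyp51, Stard4, Idi1, Srebf2 and Msmo1 lie at the lower right of both panels, higher early and lower late, and Npc2 lies alone at the top.

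The LPS effect on the members was not found to depend on the label. The interaction of label and LPS was called for 0 of 31 members at 2 hours and 0 at 24 hours by edgeR and 0 by DESeq2, with 2 and 1 members at an unadjusted p under 0.05 (0% and 0.0086% of all genes called by edgeR, 6.97% and 5.4% at the unadjusted p). For Insig1 the difference in LPS effect was -0.27 at 2 hours (95% interval -0.64 to 0.09) and 0.02 at 24 hours (-0.40 to 0.43). For Cyp51 it was -0.19 (-0.60 to 0.22) and -0.22 (-0.69 to 0.26), for Stard4 -0.10 (-0.55 to 0.35) and -0.24 (-0.74 to 0.26), and for Npc2 0.01 (-0.18 to 0.19) and -0.08 (-0.26 to 0.10). These intervals leave room for differences between the labels, widest for the low genes. Fasn had the smallest p among them at 2 hours (0.41, interval 0.10 to 0.72, adjusted p = 0.552 by edgeR).

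Few members were called with palmitate. In the WT-labelled macrophages 0 members were called at 2 hours and 0 at 24 hours by edgeR and by DESeq2, with 1 and 4 members at an unadjusted p under 0.05 (7.45% and 9.02% of all genes), while 0.275% and 0.852% of all genes were called. Plin2, which coats lipid droplets, rose with palmitate in the same libraries, by 0.93 and 1.99 on the log2 scale at 2 and 24 hours. In the KO-labelled macrophages 0 members were called at 2 hours by edgeR (1 by DESeq2, and 6 at an unadjusted p under 0.05, all lower, against 4.61% of all genes) and 1 at 24 hours (0.112% and 0.877% of all genes called). Members had a negative sign in 23 of 31 cases at each of these times, with medians of -0.21 and -0.08 against -0.0017 and -0.0035 over all genes. Stard4 was nearest to a call at 2 hours, with 18.8, 14.3 and 17.6 CPM under palmitate below 27.3, 28.3 and 23.8 CPM in Control (log2 fold change -0.65, SE 0.16, adjusted p = 0.143 by edgeR).

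Fasn was the single palmitate call. At 24 hours in the KO-labelled libraries it read 86.7, 77.3 and 85.4 CPM in Control and 65.2, 55.6 and 66.1 CPM with palmitate (log2 fold change -0.41, SE 0.10, adjusted p = 0.0338 by edgeR). The groups did not overlap, but leaving out any one of the 6 libraries ended the call. The WT-labelled libraries read 67.9, 65.0 and 77.5 CPM and 55.5, 54.5 and 56.8 CPM, also without overlap and not called (-0.34, SE 0.11, adjusted p = 0.155). The interaction of label and palmitate was called for 0 members at either time by edgeR and by DESeq2, with 1 and 0 members at an unadjusted p under 0.05 (0% of all genes called at each time).

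The Control libraries were compared with those of 0 hours to describe the change over the hours in the Control condition. At 2 hours 0 members rose and 8 fell in the WT-labelled macrophages, against 8.41% and 5.85% of all genes, while 2 rose and 2 fell in the KO-labelled ones, against 6.5% and 5.59%. The 8 were Cyp51, Fasn, Fdft1, Fdps, Msmo1, Mvd, Sc5d and Soat1, of which Cyp51, Fdft1, Msmo1 and Sc5d were also among those higher with LPS at 2 hours than in Control 2h. Set beside the WT-labelled 0-hour libraries, LPS 2h lay above in every library for Insig1 (34.9 to 43.6 CPM at 0 hours), Srebf2 (112 to 128 CPM) and Cyp51 (25.8 to 36.7 CPM), and within or across the 0-hour range for Fdft1 and Msmo1 (47.9 to 54.1 CPM). Idi1, Sc5d and Stard4 were not set beside 0 hours here. Fdft1 read 24.1, 26.1 and 18.8 CPM at 0 hours and 15.5, 13.1 and 11.6 CPM at 2 hours (log2 fold change -0.78, adjusted p = 4.14e-03 by edgeR), and Ctsb, whose exons it shares, fell by 0.18. Fdps fell from 27.3, 28.4 and 26.6 CPM to 21.9, 16.5 and 18.2 CPM (-0.54, adjusted p = 0.0144). Soat1 read 759, 732 and 766 CPM and then 602, 600 and 610 CPM (-0.32, adjusted p = 9.00e-05). Without the Control 2h library 2 the count went from 8 to 2 members, without library 3 to 3, and without the 0h library 1 or 2 to 5. Of 6 LPS response genes, 4 were called higher in these Control 2h libraries than at 0 hours.

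Under the KO label, Fasn fell from 87.0, 69.9 and 80.1 CPM at 0 hours to 49.9, 61.6 and 54.97 CPM at 2 hours (log2 fold change -0.51, adjusted p = 4.00e-04 by edgeR), and Acaca, the acetyl-CoA carboxylase, from 62.8, 38.5 and 62.1 CPM to 35.3, 35.1 and 36.5 CPM (-0.61, adjusted p = 6.35e-04). Insig1 rose from 31.6, 34.8 and 28.6 CPM to 52.3, 44.8 and 41.2 CPM (0.54, adjusted p = 5.75e-03), and Mvk, the mevalonate kinase, from 2.75, 5.48 and 5.58 CPM to 7.60, 9.31 and 8.99 CPM (0.89, adjusted p = 0.0259). The Insig1 call was lost without the 0h library 3 or the 2h library 1, and the Mvk call without the 0h library 1 or the 2h library 2 or 3. Set beside these 0-hour libraries, LPS 2h values lay higher in every library for Insig1 and within or below the range for Fasn. At 24 hours 4 members differed from 0 hours in the WT-labelled macrophages (Acaca higher by 0.43 and Npc1, Npc2 and Soat1 with -0.23, -0.27 and -0.31, against 5.72% and 6.42% of all genes), and without the 24h library 3 the count was 2. In the KO-labelled ones 0 were called by edgeR and 0 by DESeq2, with 8 at an unadjusted p under 0.05 (8.17% and 19.7% of all genes), and 1 was called without the 0h library 2.

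**Figure D4:**
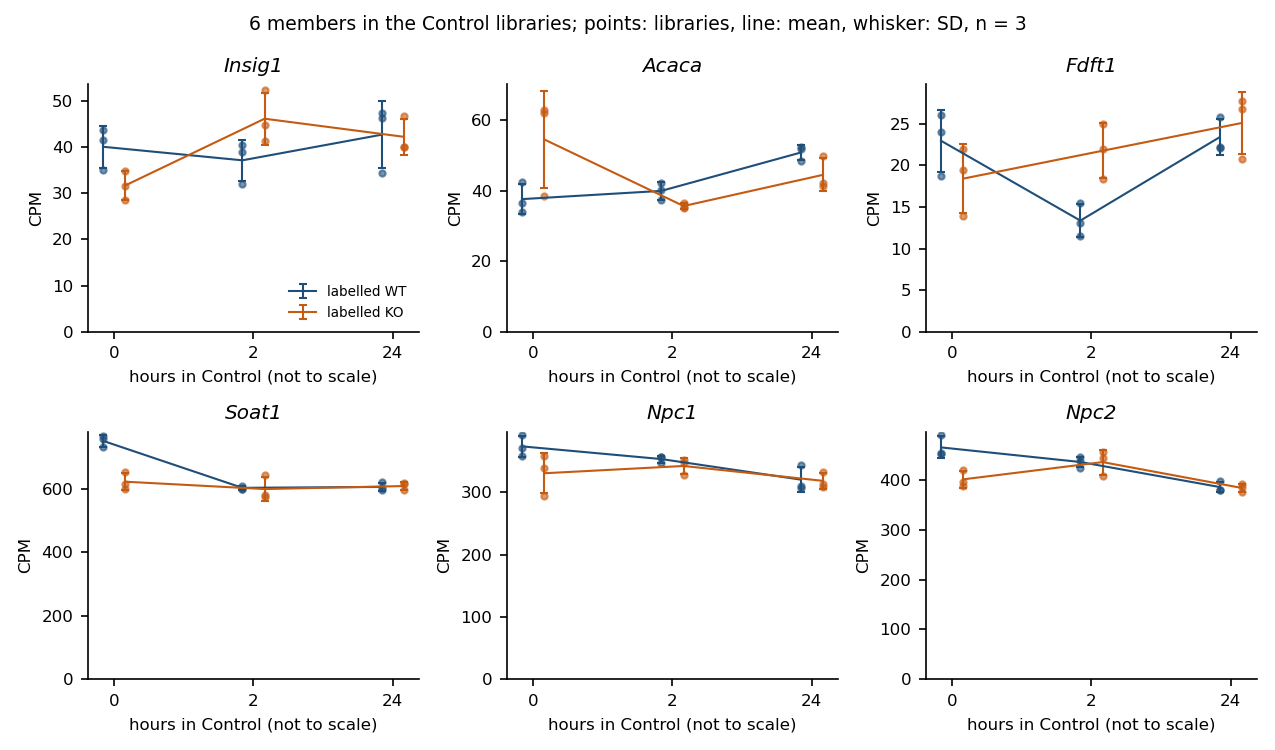
CPM (y axis, from 0) of 6 members in the Control libraries at 0, 2 and 24 hours (x axis, evenly spaced and not to scale). Points are libraries, lines join means and whiskers are SD (n = 3), blue for the WT and orange for the KO label. The labels stand apart for Soat1 and Npc2, and narrowly for Npc1 and Insig1, at 0 hours. At 2 hours they stand apart for Fdft1 and narrowly for Insig1. For Acaca at 0 hours the KO-labelled libraries stand higher, except 1 that lies with the WT-labelled ones.

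Calls between the labels were made mostly at 0 hours, among all genes as among the members. In Control 0h 1 member was higher and 3 were lower in the KO-labelled libraries, against 6.4% and 6.06% of all genes. Soat1 read 617, 653 and 600 CPM against 759, 732 and 766 CPM (log2 fold change -0.27, SE 0.06, adjusted p = 1.57e-03 by edgeR). Npc2 read 388, 398 and 421 CPM against 455, 492 and 453 CPM (-0.21, adjusted p = 0.0243), and Npc1 295, 358 and 340 CPM against 371, 392 and 359 CPM (-0.18, adjusted p = 0.0427), the highest KO-labelled Npc1 library just below the lowest WT-labelled one. Acaca read 62.8, 38.5 and 62.1 CPM against 36.5, 42.3 and 33.9 CPM (0.53, SE 0.13, adjusted p = 3.68e-03), with 1 KO-labelled library inside the WT-labelled range. The count of called members went from 4 to 1 without the KO-labelled library 1 and to 2 without its library 3, and the Npc1 call was lost in 3 of the other settings (RLE size factors, all genes with a count, and a fit of the 6 libraries alone). The fibroblast and granulocyte marker sums, given above, also differed at 0 hours. Of the macrophage markers, Cd68 (-0.47), Adgre1 (-0.31) and Mertk (-0.24) were called lower under the KO label and Csf1r (0.28) higher. Itgam and Fcgr1 were not called. The part of all these markers in these results was not tested.

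At the other times few calls were made. Fasn was higher under the KO label at LPS 2h, with 82.0, 72.3 and 61.2 CPM against 50.4, 41.9 and 54.2 CPM (log2 fold change 0.54, SE 0.12, adjusted p = 0.0107 by edgeR), where 0.301% of all genes were called higher. That call was lost without the WT-labelled LPS 2h library 2 or the KO-labelled library 1 or 2, and in a fit of the 6 libraries alone. The fibroblast marker sum was 0.759 to 152 CPM in these KO-labelled libraries and 0.371 to 0.716 CPM in the WT-labelled ones, with none of the 3 tested markers called. The granulocyte marker sum was 136 to 242 CPM against 50.2 to 76.7 CPM, with Lcn2 (1.77), Ngp (1.86) and Ltf (1.69) called higher. The part of these markers was not tested. In Control 2h, palmitate 2h, Control 24h, palmitate 24h and LPS 24h 0 members were called by edgeR, with 9, 2, 2, 1 and 1 at an unadjusted p under 0.05 and 1, 0, 0, 0 and 0 by DESeq2 (0.49%, 0.146%, 0.12%, 0.0688% and 0.146% of all genes called by edgeR). Cyp51 was nearest to a call in Control 2h, with 37.5, 38.1 and 29.4 CPM against 26.9, 19.9 and 24.0 CPM (0.57, SE 0.15, adjusted p = 0.0748 by edgeR). All 9 members at an unadjusted p under 0.05 there were higher in the KO-labelled libraries, against 10.1% of all genes in either direction, and the fibroblast marker sum in these libraries was 72.3 to 118 CPM against 1.16 to 58.7 CPM and the granulocyte sum 70.9 to 137 CPM against 20.7 to 37.4 CPM. Their part in these values was not tested.

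The change from 0 to 2 hours in Control differed between the labels for 3 members, against 2.22% of all genes called higher and 2.55% lower. Fdft1 changed by -0.78 under the WT and had 0.24 under the KO label, a difference of 1.02 (SE 0.28, adjusted p = 0.0230 by edgeR). For Insig1 the values were -0.11 and 0.54, a difference of 0.65 (SE 0.20, adjusted p = 0.0437). Acaca had a difference of -0.70 (SE 0.19, adjusted p = 0.0181). From 0 to 24 hours Acaca alone was called (-0.71, SE 0.18, adjusted p = 0.0260), against 0.946% of all genes called lower. Each of the 4 calls was lost on leaving out some of the 12 libraries behind it, 3 of 12 for Acaca at 2 hours and 7 of 12 at 24 hours, 6 for Fdft1 and 8 for Insig1.

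Other genes of the pathways, listed beside the members, were counted in the same fits. Among the sterol genes outside the members, Stard3, a late endosomal sterol carrier, rose at LPS 24h by 0.91 and 1.16 on the log2 scale under the WT and KO labels, and Cyb5r3, which passes electrons to sterol and fatty acid enzymes, by 0.29 and 0.31. Mbtps1 and Mbtps2, the proteases that release SREBP factors from the membrane, fell by 0.30 and 0.40 under the WT label and by 0.39 and 0.50 under the KO label. Of 16 fatty acid genes outside the members 2 rose and 2 fell at LPS 24h under the WT label and 2 and 3 under the KO label, against 19.6% of all genes higher and 19.9% lower under the former and 19.9% and 21% under the latter, with Scd2, a stearoyl-CoA desaturase, at -1.27 and -1.32. Among 8 genes of sterol sensing and efflux, Ch25h, which makes 25-hydroxycholesterol, rose by 4.84 and 6.68 at LPS 2h, and Nr1h3, the gene of the liver X receptor alpha, by 2.06 and 2.30 at LPS 24h, where Mylip, a ubiquitin ligase induced by liver X receptors, fell by 1.10 and 0.86. Abcg1 of the same list was called higher at LPS 24h, by 0.20 and 0.49, and lower at LPS 2h, by 0.23 and 0.40. Between the labels, Abcg1 was called lower under the KO label at LPS 2h (-0.38), and Abca1 in Control 0h (-0.33). Abca1 was called higher at LPS 2h, by 0.40 and 0.55, and so was Nr1h3, by 0.68 and 0.42. At palmitate 2h Mylip (0.42 and 0.37) and Abcg1 (0.305 and 0.36) were called higher under both labels, against 0.275% and 0.112% of all genes called. At palmitate 24h Lpcat3 of the same list was called higher under the KO label (0.87), against 0.877% of all genes called. It had 0.47, not called, under the WT label.

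How far the members varied together was described by the Pearson correlation of log2 CPM over the 14 group means. The median over the 465 pairs of members was 0.257, against 0.00188 over all pairs of tested genes, and 0.333 among the sterol steps, 0.178 among the mevalonate steps, 0.202 among the fatty acid genes, 0.466 among the SREBP control genes and -0.05 among the transport and storage genes. Among the closest pairs were Msmo1 with Stard4 (0.975), Cyp51 with Stard4 (0.970), Sqle with Msmo1 (0.961), Cyp51 with Srebf2 (0.957) and Insig1 with Srebf2 (0.950). Npc2 was among the least alike, with a median of -0.624 against the other members and -0.916 with Elovl6. The values of a pair come from the same libraries. Without the 12 LPS libraries the median over members was 0.229, that of the SREBP control genes -0.15 and that of the transport and storage genes 0.47, with 0.366 for the mevalonate steps, 0.394 for the sterol steps and 0.131 for the fatty acid genes (10 group means). Within groups, over the 42 libraries centred on their group means, the median over members was 0.0695 against 0.000421 over all genes, with Fdft1 and Srebf2 (0.612), Cyp51 and Sc5d (0.610) and Insig1 and Msmo1 (0.606) highest. Over the group means the genes most like Insig1 were Plaur (0.981), Spryd7 (0.977) and Frmd6 (0.975), Far1 (0.970) and Msmo1 were most like Sqle, and those most like Fasn were Lpar2 (0.934), Far1 (0.932) and Myof (0.919).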

How the data were processed

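Total RNA of 42 macrophage libraries was ribodepleted, prepared with a stranded kit and sequenced in pairs. The authors aligned the reads to mm10 and deposited raw read counts per gene from STAR. The submitters' notes name STAR 2.7.3a and fastp 0.19.11. The annotation and strand setting of the counting were not given in the sources used here.

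Of 37310 identifiers, 32620 matched a symbol and 12146 had no count. Totals ran from 2848793 to 7743442 counts per library. Columns name only the group, so library numbers follow column order and pair nothing. After edgeR's filterByExpr, 11624 genes were fitted with TMM scaling, 1 mean per group over all 42 libraries, and the quasi-likelihood test (edgeR 4.0.16, R 4.3.3). P-values were adjusted over all tested genes by Benjamini-Hochberg and called at an adjusted p under 0.05. CPM are counts per 1000000 of the scaled total, SE is the log2 fold change divided by the root of F, and log2 CPM for correlations used a prior count of 2. The fit and its calls were checked on simulated counts. Alternatives were RLE size factors, all genes with a count, DESeq2 1.42.0, only the libraries compared, the study's unadjusted p and log2 threshold of 1 for the label comparisons, and each of the 42 libraries left out in turn. Gene positions are from GENCODE on GRCm38, and promoters from RefSeq on GRCm38.p6.

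The members and lists were chosen with earlier results of these data known. In each comparison library values were given for at most 8 called members, not always in order of adjusted p, and for every called member between labels. The other called members were given by their log2 fold change, with members near the threshold added. Of the other lists at most 4 called genes were named, by smallest adjusted p among those reported, and some listed genes are not reported here. Up to 5 genes most like Insig1, Sqle and Fasn were ranked by Pearson correlation over 14 group means.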

Additional observations from a re-analysis of the deposited data

Results flagged for a closer look

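A pair of differences between the labels in the change from 0 to 2 hours of Control were positive and called, those of Fdft1 (1.02 on the log2 scale) and Insig1 (0.65), and that of Acaca was negative (-0.70). From 0 to 24 hours the difference of Acaca (-0.71) was the one called. Each was singled out because the change under one label differed from that under the other by the interaction term in edgeR. All of them rest on the Control 0h libraries, where 2 of 3 KO-labelled libraries stood high for Acaca (62.8 and 62.1 CPM) and the remaining one at 38.5 CPM. Fdft1 shares exons with Ctsb, whose own difference from 0 to 2 hours was 0.24 (adjusted p = 0.0454 by edgeR), and the part of that overlap was not tested.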

How the results depend on the processing

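With LPS the number of called members kept its direction and stayed within 1.5 times its value under every alternative tried, except that it went from 9 to 5 at 2 hours under the WT label without Control 2h library 2. Leaving out 1 library at a time gave 5 to 9 calls there, 15 to 18 for WT LPS 24h, 6 to 7 for KO LPS 2h and 18 to 21 for KO LPS 24h. The same gave 0 for KO palmitate 24h (1 with all libraries), 2 to 9 for WT Control 2h against 0h, 2 to 4 for WT Control 24h and 0 to 1 for KO Control 24h. Between the labels it gave 1 to 5 in Control 0h, 0 to 1 in Control 2h, 0 to 1 in LPS 2h, 1 to 3 for the label by Control 2h and 0 to 1 for the label by Control 24h. With all genes that had a count, 1 member was called for KO palmitate 2h, 1 for KO Control 24h and 2 between the labels in Control 2h, where the reported fit called 0. DESeq2 called 1, 0 and 1 in these and 2 for the label by Control 24h (1 in the reported fit). A fit of only the libraries compared called 1 for KO Control 24h, 3 between the labels in Control 2h, 0 in LPS 2h, 5 for the label by Control 2h and 2 for the label by Control 24h. The study's threshold (unadjusted p under 0.05 and a log2 fold change beyond 1) was applied to the edgeR test. The study itself used the Wald test of DESeq2. At this threshold 0 members passed between the labels in Control 0h and 1 in Control 2h. The cause of these changes was not tested. No value of a called member changed sign under these alternatives. No paired analysis was possible because the columns name the group only, so no library of one group can be tied to a library of another. The counts limit the members at a few CPM most, among them Fads2, Elovl6, Tm7sf2 and Acat2, whose lowest library counts were 0, 1, 2 and 3.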
